A study of Mus musculus with 29 samples.

Results

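The MHC class I presentation genes are the genes whose products build class I molecules and supply them with peptides. The 10 genes described here, B2m, H2-K1, H2-D1, Tap1, Tap2, Tapbp, Psmb8, Psmb9, Psmb10 and Psme1, were chosen by symbol, as a list of class I chains, peptide-loading proteins and immunoproteasome genes, out of 16593 genes with a probe. They had 16 of the 25697 probes of the array, and 15 of these were detected, with a detection p-value below 0.01, somewhere among the 29 arrays. The other, B2m probe ILMN_2670561, was detected on 0 of 29 arrays and was not tested. They were picked by symbol and not by a cut-off on a measured value, but earlier results of these data were known at the time.

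Nearly all nucleated cells show fragments of their own proteins on class I molecules, where CD8 T cells and natural killer cells read them. The proteasome cuts proteins into peptides, the transporter associated with antigen processing carries the peptides into the endoplasmic reticulum, and tapasin holds empty class I molecules beside the transporter until a peptide binds. Interferon gamma raises most of these genes at once, and loss of class I presentation is a known feature of many tumors, small cell and neuroendocrine cancers among them.

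RNA came from whole prostates of 29 male mice, 1 Illumina MouseRef-8 array per mouse, on 4 chips. Every mouse carried the TRAMP transgene, in which the rat probasin promoter drives viral T antigens in androgen-responsive prostate epithelium, on a C57BL/6 background. The OPT mice also lacked osteopontin (Spp1 tm1Blh, OPN-/-TRAMP). The groups were 3 OPT mice of 18 weeks with a palpable neuroendocrine (NE) tumor (OPT-tm), 4 TRAMP mice of 30 weeks with palpable adenocarcinoma (T30), 13 OPT mice of 18 weeks (OPT18), 5 OPT mice of 15 weeks (OPT15) and 4 TRAMP mice of 18 weeks (T18), the last 3 groups without palpable tumor. The study sorted the early prostates by clustering these same arrays into classes it named Early-NE (4 OPT18 and 1 OPT15) and Early-ADC (9 OPT18, 4 OPT15 and all T18). For OPT18 without a detectable lesion the study's text gives 9 mice and the sample labels 13, and the labels were followed. No mice without the transgene were analysed here. Age, genotype and tumor type differed together between OPT-tm and T30, and their parts in a difference cannot be told apart.

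Levels are log2 signals after quantile normalization over the 29 arrays, and a probe is said to have passed at a Benjamini-Hochberg adjusted p under 0.05 in limma, over all 15825 detected probes. Between 38.7% and 51.8% of probes were detected per array, fewer on chips 3 and 4 (38.7% to 41.9%) than on chips 1 and 2 (47.1% to 51.8%). Each of chips 1, 2 and 3 held 1 OPT-tm, 1 T30 and 1 T18 array, and chip 4 held 1 T30 and 1 T18 array. The tumor labels were checked against markers, and all 8 neuroendocrine markers tested, such as Syp (synaptophysin) and Chga (chromogranin A), were higher in OPT-tm when set against T30. In whole tissue, fewer cells of a type and less RNA per cell cannot be told apart. The mice were separate animals, so the spread between arrays covers animal and technical variation together.

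In the RefSeq gene order of GRCm38.p6, 7 of the 10 genes lie on chromosome 17, where the major histocompatibility complex is, and Psmb9, Tap1, Psmb8 and Tap2 are direct neighbours there. B2m lies on chromosome 2, Psmb10 on chromosome 8 and Psme1 on chromosome 14. RefSeq promoters were matched for 9 of the 10 genes. The sequences below are the 250 bases before the listed start of the 3 genes that encode the surface molecule itself (the first of 2 listed starts for H2-K1), and the 225 bases between the start of Psmb9 on the minus strand and that of Tap1 on the plus strand, since this pair shares one intergenic stretch. They are given because all 5 of these genes passed as lower in the NE tumors. Capitals mark matches, on either strand, to the core of the interferon-stimulated response element, to AANNGAAA (the short site bound by interferon regulatory factors, which the core contains) or to the kappa B-type element of class I promoters.
B2m, chr2:122147437-122147686, plus strand: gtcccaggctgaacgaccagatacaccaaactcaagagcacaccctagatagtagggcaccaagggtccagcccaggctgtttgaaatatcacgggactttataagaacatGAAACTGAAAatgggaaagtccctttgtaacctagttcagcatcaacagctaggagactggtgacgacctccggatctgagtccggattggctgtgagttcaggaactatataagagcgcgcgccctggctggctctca
H2-K1, chr17:34000348-34000597, minus strand: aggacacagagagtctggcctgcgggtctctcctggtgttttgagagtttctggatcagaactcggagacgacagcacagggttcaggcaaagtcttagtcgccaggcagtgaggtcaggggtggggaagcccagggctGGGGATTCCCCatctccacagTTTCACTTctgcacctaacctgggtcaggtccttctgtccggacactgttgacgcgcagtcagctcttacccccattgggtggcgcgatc
H2-D1, chr17:35262844-35263093, plus strand: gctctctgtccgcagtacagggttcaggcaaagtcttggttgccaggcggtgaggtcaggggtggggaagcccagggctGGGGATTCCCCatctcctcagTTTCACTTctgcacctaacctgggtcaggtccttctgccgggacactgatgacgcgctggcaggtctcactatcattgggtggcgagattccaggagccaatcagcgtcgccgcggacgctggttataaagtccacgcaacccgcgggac
between Psmb9 and Tap1, chr17:34187331-34187555, plus strand: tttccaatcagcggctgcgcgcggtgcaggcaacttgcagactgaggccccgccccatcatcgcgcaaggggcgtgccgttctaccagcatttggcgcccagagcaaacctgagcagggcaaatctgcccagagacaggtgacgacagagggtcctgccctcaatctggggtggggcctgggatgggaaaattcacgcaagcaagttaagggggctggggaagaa

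The H2-K1 and H2-D1 stretches shared a run of 47 identical bases that holds the kappa B-type element, followed in both by TTTCACTT, the reverse complement of an AANNGAAA match. The kappa B-type element stood in 10 of 32851 promoters of 300 bases (0.0304%), among them both class I chains and no other of the 9 genes. AANNGAAA was common, in 23.9% of promoters, and 4 of the 9 genes held it (B2m, H2-K1, H2-D1 and Psme1). The core of the interferon-stimulated response element stood in 3.44% of promoters, among them those of B2m and Psme1. TTCNNNGAA, the gamma-activated site, stood in 8.3% of promoters and, of the 9 genes, in that of Psmb8. The kappa B-type element and AANNGAAA were searched after the sequences had been read. These are matches of letters and not measured sites.

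OPT-tm prostates had the lowest mean of the 5 groups at 15 of 15 probes. The share of all probes with their lowest mean in OPT-tm was not counted, so this order is a description only. Set against T30 adenocarcinomas, 13 of the 15 probes, for 9 of the 10 genes, passed as lower, and 0 passed as higher. Over all probes, 20.8% passed as lower and 21.8% as higher in the same comparison. At the study's further criterion of a 2-fold change, 8 of 15 probes were lower against 11.5% of all probes. The median log2 fold change of the 15 probes was -1.04, beside -0.00 over all probes. At 14 of 15 probes every OPT-tm mouse lay below every T30 mouse, which held in that direction for 23.4% of all probes.

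**Figure D1:**
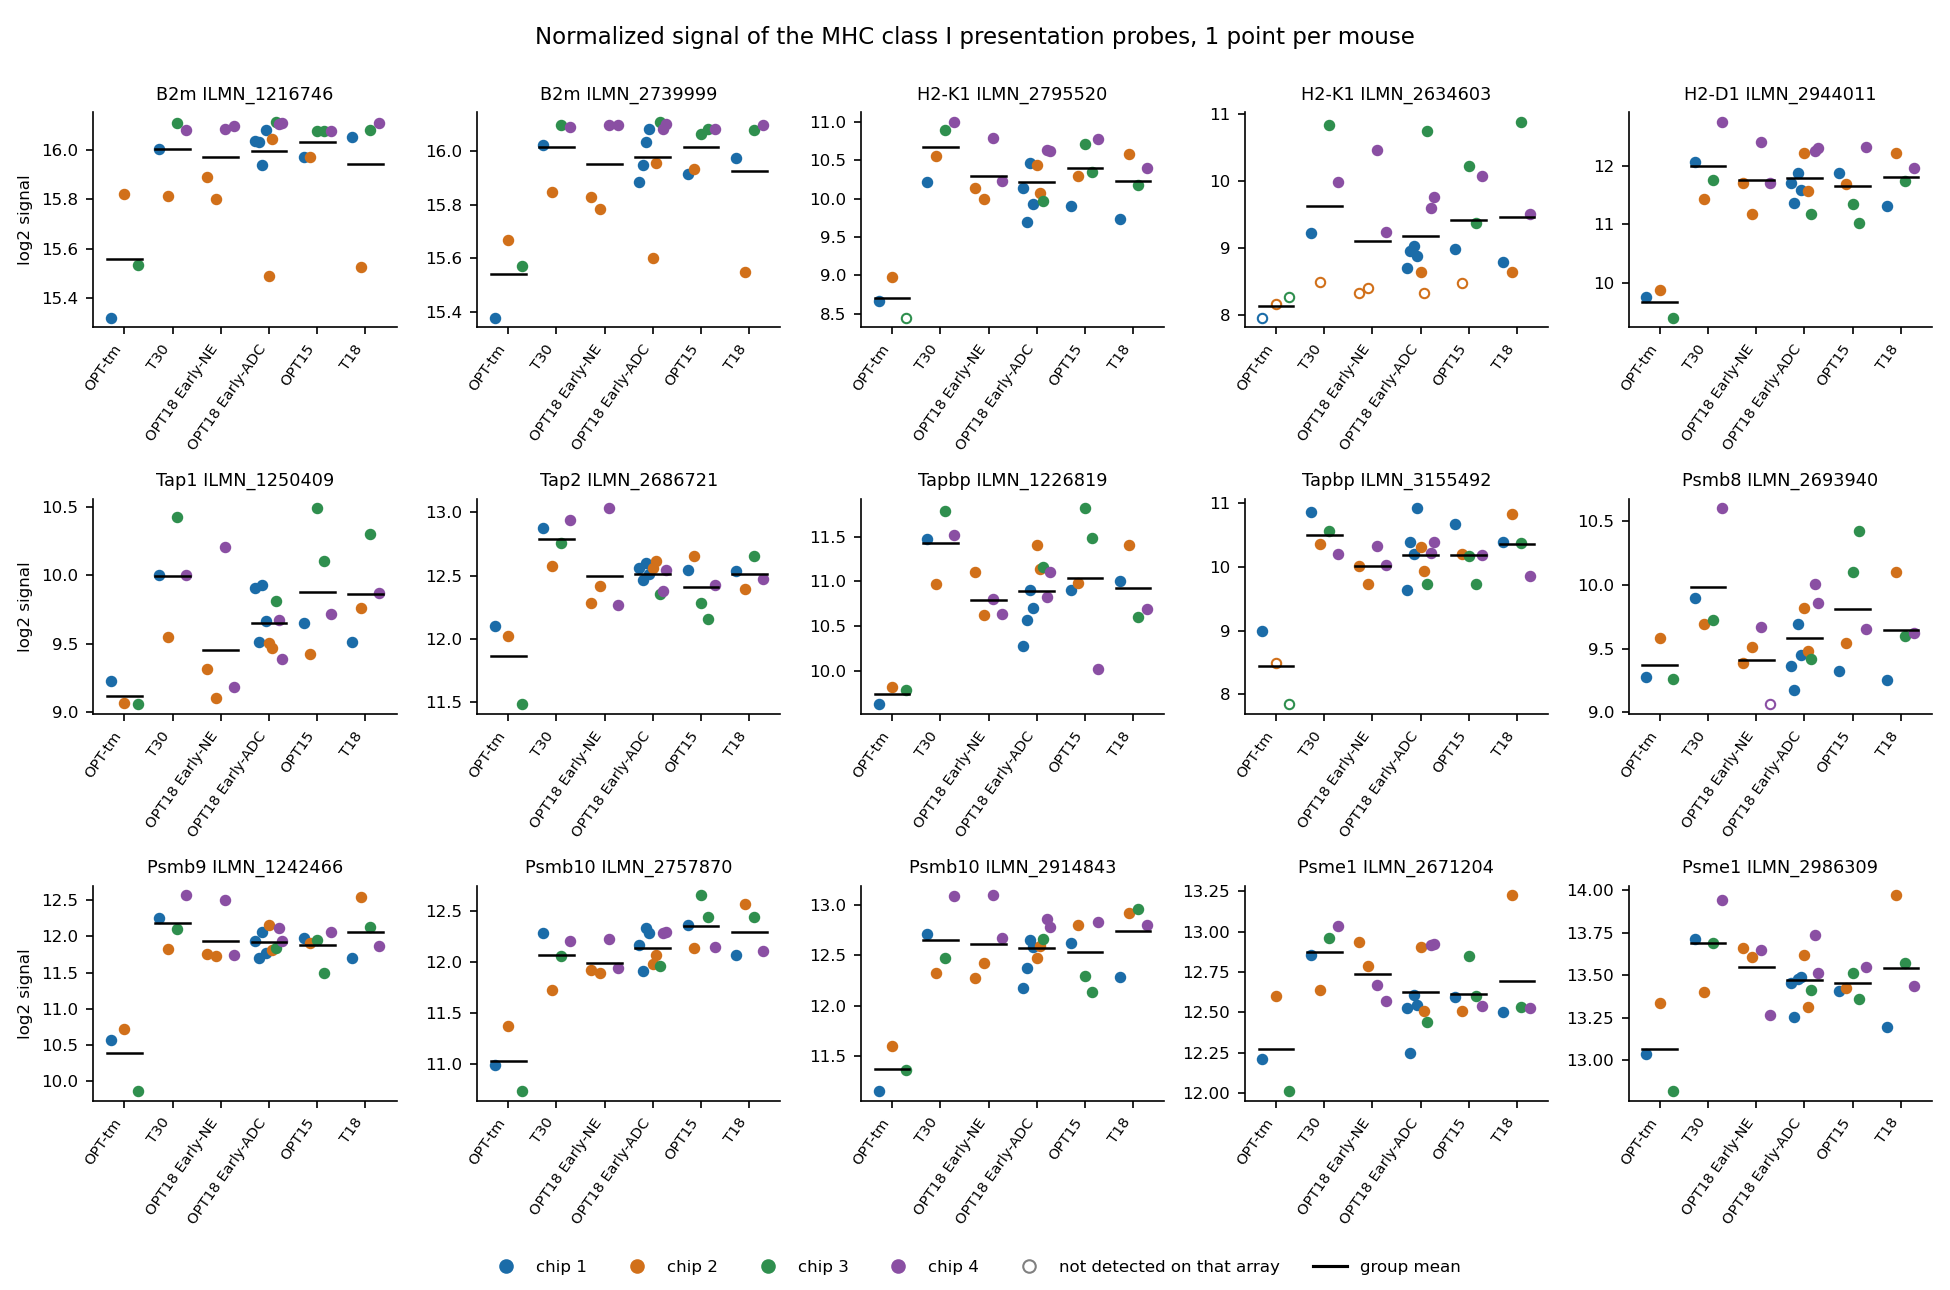
Normalized log2 signal (y axis) of the 15 detected probes in each group (x axis), with 1 point per mouse, coloured by chip, open where the probe was not detected, and a black line at the group mean. The OPT-tm mean is the lowest in every panel, and the OPT-tm points lie below all T30 points in 14 of the 15 panels.

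Of the class I heavy chains, H2-D1, that of H-2D, had the larger fall. Its log2 signal was 9.75, 9.88 and 9.41 in OPT-tm, against 12.05, 11.43, 11.75 and 12.75 in T30. In the prostates without palpable tumor it ran from 11.18 to 12.40 in OPT18 (median 11.70), from 11.02 to 12.32 in OPT15, and was 11.31, 12.22, 11.73 and 11.96 in T18. The 3 OPT-tm values lay below the other 26 mice, with a gap of more than 1 log2 unit. The log2 fold change against T30 was -2.32 (SE 0.30, limma adjusted p = 3.83e-04), which is 4.98-fold lower, and against OPT18 it was -2.09 (SE 0.23, adjusted p = 2.39e-07).

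H2-K1, the heavy chain of H-2K, had 2 probes. At ILMN_2795520 the log2 signal was 8.67, 8.99 and 8.45 in OPT-tm, the last not detected, against 10.23, 10.56, 10.90 and 11.01 in T30. It ran from 9.69 to 10.79 in OPT18 (median 10.14) and was 9.74, 10.58, 10.18 and 10.41 in T18. Again no OPT-tm mouse reached the range of any other group. The log2 fold change was -1.97 against T30 (SE 0.23, adjusted p = 2.06e-04), or 3.92-fold lower, and -1.54 against OPT18 (SE 0.19, adjusted p = 9.58e-07). With the neqc background correction these were -2.88 and -2.37.

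The second H2-K1 probe, ILMN_2634603, depended on the chip. Leaving OPT-tm out, its median log2 signal was 8.95, 8.47, 10.74 and 9.77 on chips 1 to 4, a wider range than the means of the other 4 groups (9.16 to 9.63). It was not detected on any of the 3 OPT-tm arrays (7.96, 8.15 and 8.27), against 9.22, 8.49, 10.84 and 9.99 in T30, of which 3 of 4 were detected. Measured against the lowest detected signal of each array, it was at least 1.97-fold lower in OPT-tm than in T30 (adjusted p = 0.0309) and at least 1.42-fold lower than in OPT18 (adjusted p = 0.0334). The call against OPT18 was lost without any 1 of the OPT-tm mice (adjusted p = 0.0662 to 0.110). Within chips 1, 2 and 3 the difference between OPT-tm and T30 was -1.26, -0.34 and -2.57.

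B2m encodes beta-2 microglobulin, the light chain without which no class I molecule reaches the surface, and it was among the brightest probes of the array. The brightest signal on an array lay between 70174 and 71865, and in T30 the raw signal of ILMN_1216746 reached 95.6% to 99.9% of that maximum. In OPT-tm the same probe reached 69.8%, 97.0% and 42.8% of it in replicates 1, 2 and 3. Levels near the maximum are compressed, in OPT-tm replicate 2 as in the other groups, so the size of a B2m difference is not known and no fold is given. ILMN_2739999 had log2 signals of 15.38, 15.67 and 15.57 in OPT-tm, against 16.02, 15.85, 16.10 and 16.09 in T30, and it passed as lower in OPT-tm (adjusted p = 0.0283). ILMN_1216746 (15.32, 15.82 and 15.53 in OPT-tm, against 16.01, 15.81, 16.11 and 16.08 in T30) overlapped at 1 mouse of each group and did not pass (adjusted p = 0.0590). Against OPT18 both passed as lower (adjusted p = 0.00601 and 0.00240), with overlap, since an OPT18 Early-ADC mouse on chip 2 measured 15.49 and 15.60. A T18 mouse on the same chip measured 15.52 and 15.55.

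The peptide-loading genes fell as well, by amounts that differed between them. Tapbp encodes tapasin. At its probe ILMN_1226819 the log2 signal was 9.63, 9.82 and 9.79 in OPT-tm, against 11.47, 10.97, 11.78 and 11.51 in T30. It ran from 10.28 to 11.41 in OPT18 (median 10.82) and from 10.60 to 11.41 in the 4 T18 mice. OPT-tm lay below all other mice, and the log2 fold change was -1.69 against T30 (SE 0.20, adjusted p = 2.49e-04), or 3.22-fold lower, and -1.12 against OPT18 (SE 0.17, adjusted p = 1.54e-05). The lowest early prostate was the Early-NE mouse of OPT15 (10.02). At the other tapasin probe, ILMN_3155492, the signal was 8.99, 8.48 and 7.84 in OPT-tm, detected on 1 of 3 arrays, against 10.86, 10.35, 10.57 and 10.21 in T30. That was a log2 fold change of -2.06 (SE 0.28, adjusted p = 5.06e-04), and -1.70 against OPT18 (SE 0.23, adjusted p = 2.43e-06). With signals near background the size depended on the background correction, and neqc gave -3.25 and -2.80.

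Tap1 and Tap2 encode the subunits of the peptide transporter. Tap1 measured 9.23, 9.07 and 9.06 in OPT-tm, against 9.55 to 10.42 in the 4 T30 mice, a log2 fold change of -0.88 (SE 0.21, adjusted p = 0.00888). It ran from 9.11 to 10.20 in OPT18 (median 9.51), which overlapped OPT-tm, and the fold change there was -0.47 (SE 0.18, adjusted p = 0.0260), a call lost without OPT-tm replicate 2 or 3 (adjusted p = 0.0819 and 0.0874). Tap2 measured 12.10, 12.02 and 11.48 in OPT-tm, against 12.88, 12.58, 12.76 and 12.94 in T30, a log2 fold change of -0.92 (SE 0.19, adjusted p = 0.00471). In OPT18 it ran from 12.26 to 13.03 (median 12.51), all above OPT-tm, with a fold change of -0.64 (SE 0.14, adjusted p = 6.03e-04). Apart from the 2-fold criterion, Tap2 passed in 15 of 16 alternatives against T30 (highest limma adjusted p = 0.203). Against OPT18 it passed in 12 of 13 (highest 0.113).

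The 3 catalytic subunits of the immunoproteasome did not move alike. Psmb9 measured 10.58, 10.72 and 9.86 in OPT-tm, against 12.25, 11.83, 12.11 and 12.57 in T30, and it ran from 11.71 to 12.50 in OPT18 (median 11.84). The OPT-tm mice lay a full log2 unit or more below every T30 mouse. The log2 fold change was -1.80 against T30 (SE 0.25, adjusted p = 6.22e-04), or 3.48-fold lower, and -1.54 against OPT18 (SE 0.17, adjusted p = 2.07e-07). Tap1, which starts 225 bases away on the other strand, had the smaller fold change given above. Its signals were low in OPT-tm (9.06 to 9.23), so its fall could be understated. Over the alternatives run, the change against T30 was -1.25 to -0.73 for Tap1 and -2.02 to -1.54 for Psmb9.

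Psmb10 measured 11.15, 11.60 and 11.36 at ILMN_2914843 in OPT-tm, against 12.71, 12.32, 12.47 and 13.09 in T30, with no overlap and a log2 fold change of -1.28 (SE 0.21, adjusted p = 0.00156). ILMN_2757870 gave -1.04 (SE 0.20, adjusted p = 0.00376). Against OPT18 the changes were -1.21 and -1.06 (adjusted p = 1.28e-06 and 1.02e-06). Psmb8 measured 9.28, 9.58 and 9.26 in OPT-tm, against 9.90, 9.70, 9.73 and 10.60 in T30, and did not pass (log2 fold change -0.61, SE 0.24, adjusted p = 0.0682). The OPT-tm values still lay below every T30 mouse, and the 95% interval was -1.15 to -0.07. That change was about as large as those of Psme1 (-0.60 and -0.62), which passed, so Psmb8 is not set apart from Psme1 there. In OPT18 it ran from 9.06 to 10.01 (median 9.48), around the OPT-tm values, with a fold change of -0.16 (95% interval -0.49 to 0.18, adjusted p = 0.413). On this scale, without background correction, a fall as large as that of Psmb9 lies outside the interval. Psmb8 signals were low, and the OPT18 mouse at 9.06 was not detected, so a fall at this probe could be understated. Over the alternatives run, neqc background correction among them, the Psmb8 change against OPT18 was -0.26 to -0.08.

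Psme1 encodes the alpha subunit of the PA28 activator, which opens the proteasome. ILMN_2986309 measured 13.04, 13.34 and 12.82 in OPT-tm, against 13.71, 13.40, 13.69 and 13.94 in T30, a log2 fold change of -0.62 (SE 0.19, adjusted p = 0.0254). ILMN_2671204 gave -0.60 (SE 0.18, adjusted p = 0.0279). Against OPT18 they gave -0.43 and -0.39 (adjusted p = 0.00401 and 0.0272), with ranges that overlapped. Without OPT-tm replicate 3 neither passed (adjusted p = 0.0565 and 0.205), nor did ILMN_2671204 without OPT-tm replicate 1 (adjusted p = 0.0946). Both Psme1 calls against T30 were lost when OPT-tm replicate 1 or 3 or T30 replicate 1, 3 or 4 was left out (adjusted p = 0.0538 to 0.0926), and so was that of B2m ILMN_2739999 (adjusted p = 0.0537 to 0.104). The call of H2-K1 ILMN_2634603 was lost without any 1 of the 3 OPT-tm mice or without T30 replicate 4 (adjusted p = 0.0688 to 0.0941).

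**Figure D2:**
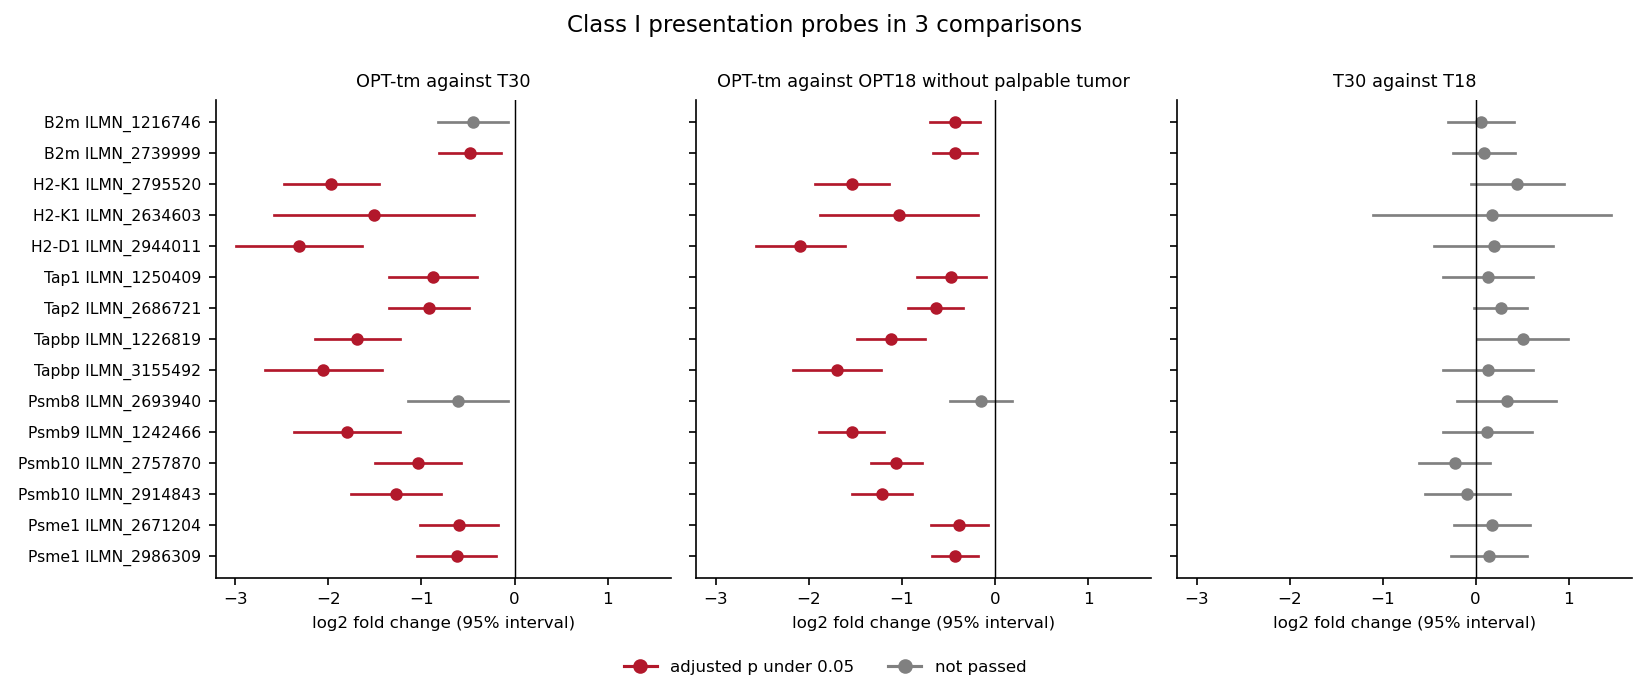
Log2 fold change (x axis) with its 95% interval for each probe (rows) in OPT-tm against T30, OPT-tm against OPT18 and T30 against T18, red where the adjusted p was under 0.05. Of 15 probes, 13 are red in the first panel and 14 in the second, all below 0, and 0 are red in the third.

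Against all 13 OPT18 prostates, which share genotype and age with OPT-tm, 14 of 15 probes passed as lower, for 9 genes (30.4% of all probes passed as lower and 32.6% as higher), and 8 of 15 at 2-fold or more (12.4% of all probes). The median log2 fold change was -1.03, beside 0.01 over all probes, and OPT-tm lay below every OPT18 mouse at 9 of 15 probes (21.5% of all probes). This comparison shares the OPT-tm arrays with the one against T30, so the 2 are not independent. OPT-tm and OPT18 also differed in the tissue sampled, with lower seminal vesicle and luminal epithelium markers in OPT-tm, as given below.

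T30 adenocarcinomas, set against T18, showed no such fall. 0 of 15 probes passed in either direction, and over all probes 1.57% passed as lower and 0.392% as higher. The log2 fold changes ran from -0.23 (Psmb10 ILMN_2757870) to 0.51 (Tapbp ILMN_1226819), with a median of 0.14 beside 0.01 over all probes, and 1 of 15 had an unadjusted p under 0.05, Tapbp ILMN_1226819 (SE 0.22, adjusted p = 0.288). T30 had the highest mean of the 5 groups at 11 of the 13 probes other than B2m, a description for which the share over all probes was not counted. For H2-D1 the fold change was 0.19 (95% interval -0.45 to 0.83), for H2-K1 ILMN_2795520 0.45 (-0.05 to 0.95) and for Psmb9 0.13 (-0.35 to 0.60). These intervals allow changes of more than 0.5 log2 units upward, so T30 and T18 are not shown to be alike.

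The difference between genotypes was tested itself, as the log2 fold change of OPT-tm over OPT18 minus that of T30 over T18. It passed as lower at 11 of 15 probes, for 8 genes (of all probes, 20.9% passed as lower and 21.9% as higher), and 6 of 15 were at least 2-fold (11.1% of all probes). Both B2m probes are among the 11, without a known size, and ILMN_1216746 passed in 10 of 21 alternatives. The largest were H2-D1 with -2.28 (SE 0.38, adjusted p = 3.43e-05), H2-K1 ILMN_2795520 with -1.99 (SE 0.30, adjusted p = 1.19e-05), Tapbp with -1.84 and -1.63, and Psmb9 with -1.67 (SE 0.27, adjusted p = 2.85e-05). Tap1 (-0.61, adjusted p = 0.0871), Psmb8 (-0.49, adjusted p = 0.159), H2-K1 ILMN_2634603 (-1.21, adjusted p = 0.1795) and Psme1 ILMN_2671204 (-0.56, adjusted p = 0.0533) did not pass. The tumors compared here also differ in type and age, which the design does not separate from genotype.

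Between groups without palpable tumor almost no probe of the array passed, and none of these genes did. OPT18 set against T18 gave 0 of 15 probes passed, where 0.019% of all probes passed as lower and 0.019% as higher, with log2 fold changes from -0.30 to 0.02 at the 13 probes other than B2m (median -0.11) and 0 of 15 unadjusted p under 0.05. OPT18 set against OPT15 gave 0 of 15, where 0% of all probes passed in either direction, with fold changes from -0.29 (Tap1) to 0.12 (H2-D1) and 1 unadjusted p under 0.05, for Psmb10 ILMN_2757870 (-0.25, 95% interval -0.46 to -0.04). Apart from H2-K1 ILMN_2634603, the widest interval for OPT18 against T18 was that of H2-D1, from -0.48 to 0.41.

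Early-NE and Early-ADC prostates were divided by the study on these arrays, so they are only described. At 15 of 15 probes the 5 Early-NE and 13 Early-ADC mice of OPT15 and OPT18 overlapped. The share of all probes that overlapped was not counted, so this is not read as particular to these genes. The differences in mean ran from -0.38 (Tapbp ILMN_1226819, 10.64 in Early-NE and 11.02 in Early-ADC) to 0.17 (H2-D1, 11.86 and 11.69), with a median of 0.00, and none reached 2-fold. Among the OPT18 mice alone these 2 probes gave -0.11 and -0.03, so both extremes depended on the OPT15 mice. With array medians set equal, 12 of the 15 differences were negative, with a median of -0.12. The median over all probes was not computed for that setting. Of all probes, 1.66% were at least 2-fold higher in Early-NE and 0% lower. The summed signal of 8 neuroendocrine markers was 12600 to 36600 in the 4 OPT18 Early-NE mice and 3990 to 9030 in the 9 OPT18 Early-ADC mice, against 106000 to 115000 in OPT-tm. Set beside the 5 Early-NE mice, OPT-tm differed by -2.18 at H2-D1, -1.69 at H2-K1 ILMN_2795520, -1.57 at Psmb9 and -0.08 at Psmb8.

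**Figure D3:**
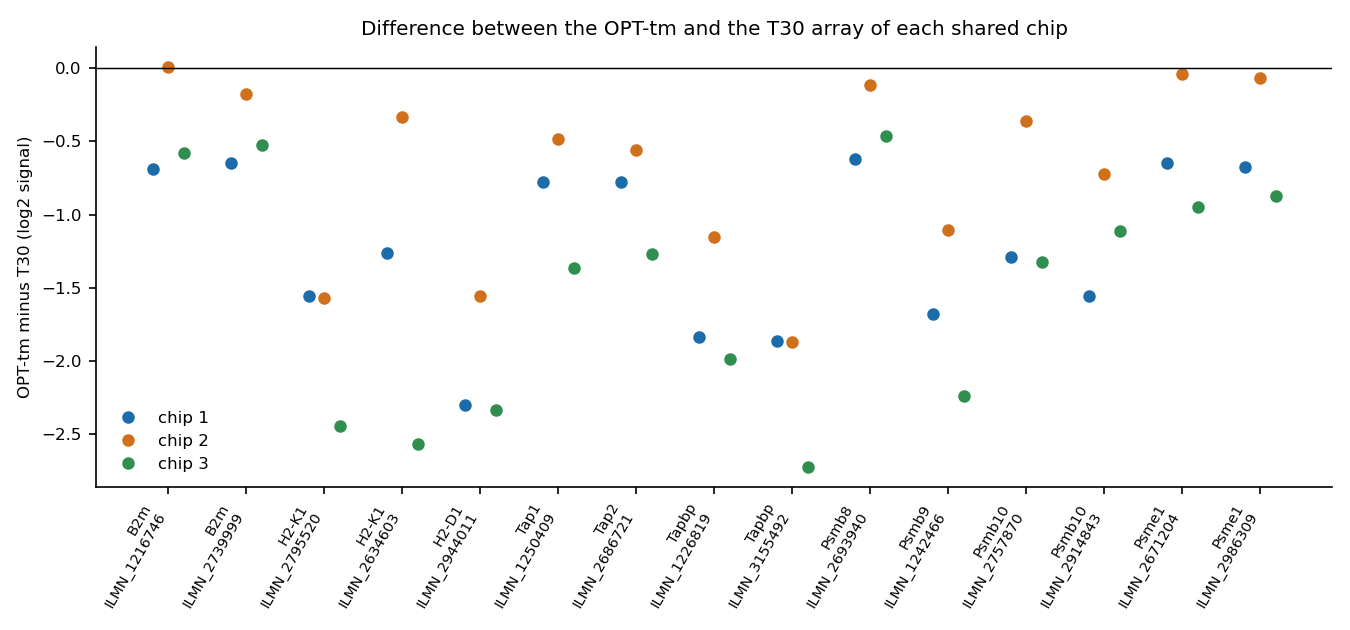
Difference in log2 signal between the OPT-tm and the T30 array of the same chip (y axis) for each probe (x axis), with chips 1, 2 and 3 in different colours. 14 of the 15 probes are below 0 on all 3 chips, and the exception, B2m ILMN_1216746, is at 0.01 on chip 2.

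Within each of the 3 shared chips, OPT-tm lay below T30 at 14 of 15 probes, as did 33.1% of all probes. The chip 2 pair differed least at most probes, with -1.56 for H2-D1, -1.57 for H2-K1 ILMN_2795520, -1.10 for Psmb9, -0.07 and -0.04 for Psme1 and 0.01 for B2m ILMN_1216746. On chip 3 the same differences were -2.34, -2.45, -2.24, -0.87 and -0.95, B2m left aside. OPT-tm was also below the T18 array of the same chip in all 3 chips at 12 of 15 probes (35.8% of all probes). For T30 over T18 the sign varied with the chip, and 1 of 15 probes (Tap2) was higher in T30 on all 4 chips (14.7% of all probes).

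The rest of the pathway moved in part. Of 34 listed class I genes outside the 10, 25 were tested, of which 13 fell, 1 rose and 11 did not pass in OPT-tm relative to T30 (median -0.45). Over all probes, 20.8% passed as lower and 21.8% as higher there, the share to set beside each list compared with T30 below. The non-classical class I genes H2-T23 (the Qa-1 molecule) and H2-Q7 (Qa-2) had the largest falls. H2-T23 ran from 11.21 to 12.11 in OPT-tm, against 14.20 to 14.54 in T30 (log2 fold change -2.71, adjusted p = 3.57e-05), and H2-Q7 from 10.01 to 10.72, against 12.11 to 12.99 (-2.21, adjusted p = 1.95e-04). The exception in direction was Cd1d1, a lipid-presenting class I-like molecule, at 12.21 to 13.64 in OPT-tm and 9.38 to 10.42 in T30 (2.95, adjusted p = 4.27e-04). Pomp, the proteasome assembly factor (-0.23, adjusted p = 0.227), and Rfxap, a subunit of the RFX factor of class II and class I promoters (0.04, adjusted p = 0.843), were among the 11 that did not pass.

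Of the regulators of class I transcription, Nlrc5 and Irf1 were lower in OPT-tm when set against T30, while Rfxap and Irf2 did not pass there. Rfxank was detected on 0 of 3 OPT-tm and 0 of 4 T30 arrays, so its levels cannot be compared. Nlrc5, the transactivator of class I genes, ran from 8.39 to 8.61 in OPT-tm (detected on 1 of 3 arrays), against 9.43 to 10.25 in T30, a log2 fold change of -1.45 (SE 0.20, adjusted p = 6.64e-04), and of -0.65 against OPT18 (adjusted p = 0.0156). Irf1, an interferon-induced regulator of class I promoters, ran from 12.64 to 12.97 in OPT-tm, against 13.47 to 13.96 in T30 (-0.89, adjusted p = 0.00378). Of 9 tested genes of interferon gamma signaling, 6 were lower, 0 higher and 3 not passed, with Irf9 (-1.35, adjusted p = 6.71e-04) and Ifngr1, a chain of the interferon gamma receptor (-1.31, adjusted p = 5.41e-04), at the head. The probes of Ifng and Erap1 were detected on 0 arrays.

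The constitutive proteasome did not move with the immunoproteasome. Of 12 tested core subunits, 0 were lower, 1 was higher and 11 did not pass, with a median of 0.08. Psmb7, the constitutive counterpart of Psmb10, was the one that rose, at 14.01 to 14.39 in OPT-tm and 13.33 to 13.47 in T30 (0.81, SE 0.15, adjusted p = 0.00237). Psmb6, the counterpart of Psmb9, gave 0.50 (adjusted p = 0.116), and Psmb5, the counterpart of Psmb8, gave -0.14 (adjusted p = 0.736). Psme2, the partner of Psme1 in PA28, was lower by a narrow margin (-0.45, adjusted p = 0.0495).

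**Figure D4:**
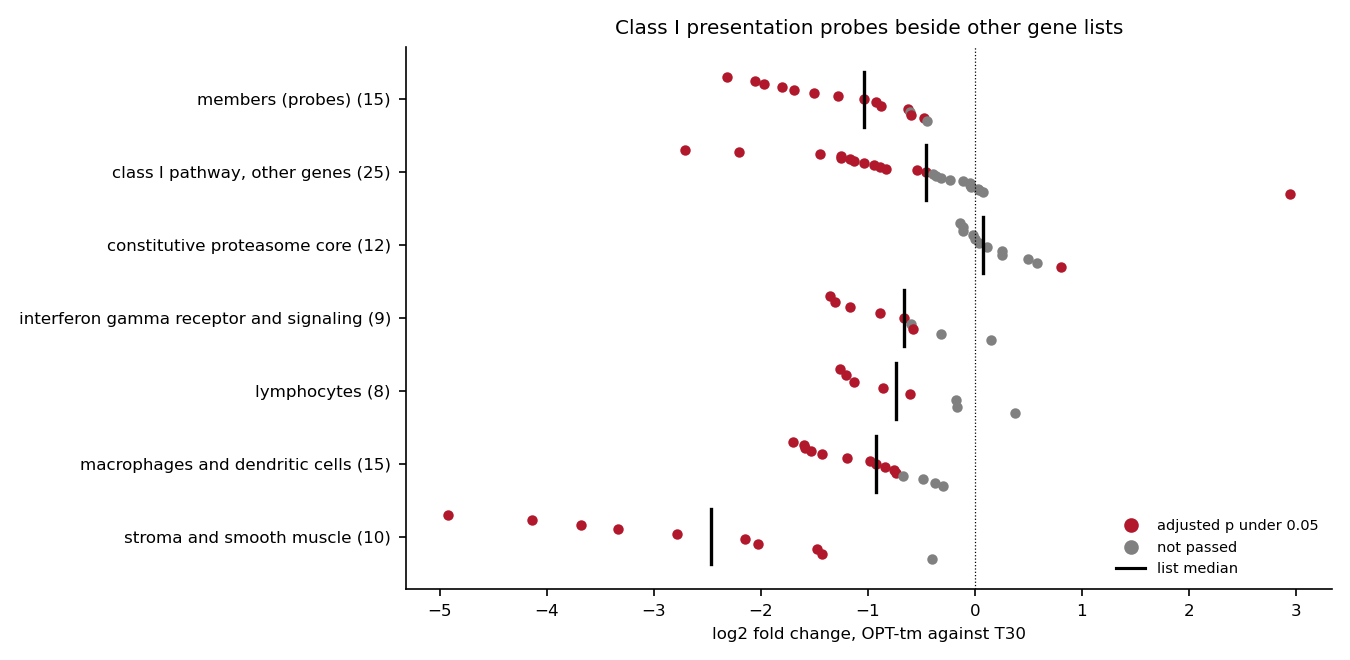
Log2 fold change of OPT-tm against T30 (x axis) for the 15 probes and for the tested genes of 6 lists (rows, number in brackets), 1 point per probe or gene, red where passed, with a black line at the median of each list. The members, other class I genes and immune and stromal lists lie mostly below 0, while the constitutive proteasome lies around 0.

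Relative to T30, markers of several other cell types, though not all, moved with these genes. Over all probes, 20.8% passed as lower and 21.8% as higher in that comparison. Of 15 tested macrophage and dendritic cell genes, 11 fell and 0 rose in OPT-tm relative to T30, and their summed signal was 37900 to 56100 in OPT-tm, against 69500 to 98300 in T30, 40000 to 73600 in OPT18 and 32900 to 74300 in T18. Of 8 tested lymphocyte genes, 5 were lower and 0 higher, with sums of 3560 to 6990 in OPT-tm and 5290 to 6780 in T30. Against OPT18, 30.4% of all probes passed as lower and 32.6% as higher. Of the 15 macrophage and dendritic cell genes, 6 were lower and 1 was higher against OPT18 (median -0.17). The class II genes H2-Aa (-1.35, adjusted p = 1.48e-04) and H2-Ab1 (-1.27, adjusted p = 2.24e-04) had the largest falls there, while Lyz2, a macrophage lysozyme, gave 0.14 (adjusted p = 0.627). Cd3d, Cd3e, Nkg7, Cd79b and Ltb were detected on none of the OPT-tm arrays. This was not particular to OPT-tm for all of them. Ltb was also detected on no T30 array, Cd79b on no OPT18 or T18 array, and Cd3d, Cd79b and Ltb on no OPT15 array. Cd8a and Ptprc were detected on none of the 29. Stroma and smooth muscle genes were lower in 9 of 10 cases, with sums of 31300 to 39400 in OPT-tm against 149000 to 180000 in T30, and of 7 tested luminal epithelium genes 3 were lower, with Krt8 (-3.56) among them, 1 was higher (Hoxb13, 0.49) and 3 did not pass. Of 9 tested endothelial genes, 0 were lower, 1 was higher (Plvap, 0.94) and 8 did not pass. Seminal vesicle genes had summed signals of 167000 to 282000 in OPT18, 159000 to 227000 in OPT15 and 197000 to 272000 in T18. In OPT-tm against OPT18, 6 of 6 seminal vesicle genes (median -5.87) and 6 of 7 luminal epithelium genes (median -3.21) were lower. 1 T30 array, on chip 1, had almost no seminal vesicle signal, with a sum of 3010 against 291000 to 331000 in the other 3 T30 arrays and 1610 to 2600 in OPT-tm. Without it 10 of the 15 probes still passed, the calls lost being B2m ILMN_2739999 and both of Psme1. The share of all probes that passed without that array is not given here. The part of these cell types in the class I differences was not tested.

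Over the 29 arrays, the mean standardized level of the 10 genes, 1 probe each, had its lowest values in OPT-tm (-2.39 to -1.41), while T30 ran from -0.04 to 1.43, T18 from -0.33 to 0.60, OPT18 from -0.42 to 0.92 and OPT15 from -0.02 to 0.55. Psmb9 (Pearson r = 0.93), H2-K1 (0.92) and H2-D1 (0.88) followed the mean of the other genes most closely and B2m (0.50) and Psmb8 (0.53) least. Without the tumor-bearing mice, over 22 prostates, r was 0.77 for Psmb9, 0.77 for H2-K1, 0.60 for H2-D1 and 0.48 for Psmb8. It was lowest there for B2m (-0.26), Tapbp (0.01, beside 0.69 over the 29 arrays) and Tap2 (0.26, beside 0.76). The 5 genes outside the list whose pattern was most like that mean, among 10758 genes, were H2-Q7 (r = 0.95), H2-T23 (0.94), Gm8909 (0.93), Itgb6 (0.93) and Mgst1 (0.91). Over the 22 prostates without palpable tumor these r were 0.85, 0.74, 0.67, 0.59 and 0.54 in the same order. These correlations are descriptions, and they rest in part on the 3 OPT-tm arrays and on the chips the arrays share. Probe sequences were not used here, and class I genes are near-identical in places, so a probe named for one may also read another.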

How the data were processed

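RNA from 29 prostates was hybridised to Illumina MouseRef-8 v2.0 arrays, 1 mouse each. The authors deposited BeadStudio probe signals (an intensity, not normalized) with a detection p-value for each probe. The authors also deposited log2 values after robust spline normalization in lumi, whose version was not given in the sources used here, and these served as an alternative.

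Signals were log2 transformed and quantile normalized without background correction. The 15825 probes with a detection p-value below 0.01 on any array were fitted with limma 3.58.1 in R 4.3.3 (lmFit, eBayes), with the compared groups only and Benjamini-Hochberg adjustment. Intervals are 95%. Scripts were tested on simulated data. The number of arrays limits the precision. Lists were described with 1 probe per gene, and named genes were every member, the largest rises and falls of each list, up to 2 genes not passed and a few fixed regulators. Genes of markers named to illustrate absence were chosen after their values were seen. Members and lists were chosen with earlier results of these data known. Promoters and gene places came from RefSeq, GRCm38.p6. Figures were drawn with matplotlib 3.10.9.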

Additional observations from a re-analysis of the deposited data

Results flagged for a closer look

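In 75 sets of 4 or more mice, 1 probe and group each, 9 single values lay apart from the rest of their group. Chance sets apart about 1 in 20 such groups.

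B2m ILMN_1216746 was 15.52 in T18 replicate 2, against 16.05 to 16.11 in the other T18 mice, and 15.49 in OPT18 Early-ADC replicate 5, against 15.94 to 16.12. The same OPT18 mouse had 15.60 at B2m ILMN_2739999, against 15.89 to 16.11. Both mice were on chip 2. Their raw ILMN_1216746 signals were 95.4% and 95.3% of the brightest signal on their arrays, in the order given. Levels so near the maximum are compressed, so the size of these B2m gaps is not known. T18 replicate 2 was also high at Psme1 ILMN_2671204, with 13.23 against 12.50 to 12.53. At that probe OPT15 Early-ADC replicate 3 had 12.85, against 12.51 to 12.60.

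Psmb9 was 12.50 in OPT18 Early-NE replicate 3, against 11.73 to 11.76 in the other 3 mice of that class, and the same mouse had 12.23 at Psmb10 ILMN_2757870, against 11.89 to 11.95. Psmb9 was 11.49 in OPT15 Early-ADC replicate 4, against 11.92 to 12.07. Psme1 ILMN_2986309 was 13.27 in OPT18 Early-NE replicate 4, against 13.61 to 13.66.

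The change from prostates without palpable tumor to tumors differed between OPN-/-TRAMP and TRAMP at 11 of 15 probes, by the interaction term in limma. All 11 passed as lower, and of all probes 20.9% passed as lower and 21.9% as higher. The tumors also differ in type and age, which the design does not separate from genotype. The class I chains gave -2.28 for H2-D1 (adjusted p = 3.43e-05), -1.99 for H2-K1 ILMN_2795520 (1.19e-05), and -0.49 and -0.52 for B2m (0.0454 and 0.0188), whose signals near the maximum leave the size unknown. B2m ILMN_1216746 passed in 10 of 21 alternatives. The loading genes gave -1.63 and -1.84 for Tapbp (6.01e-05 and 1.13e-04) and -0.91 for Tap2 (6.03e-04). The proteasome genes gave -1.67 for Psmb9 (2.85e-05), -0.84 and -1.12 for Psmb10 (0.00213 and 8.50e-04) and -0.57 for Psme1 ILMN_2986309 (0.0257). Causes were not tested.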

How the results depend on the processing

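With array medians set equal in place of quantile normalization, 8 of 15 probes passed as lower in OPT-tm against T30 and 6 in the difference between genotypes. With 1 probe per gene, 8 of 10 genes passed against T30 and 9 of 10 against OPT18. Asking for a 2-fold change as well left 8, 8 and 6 probes for OPT-tm against T30, OPT-tm against OPT18 and the difference between genotypes. Of all probes, 11.5%, 12.4% and 11.1% were lower by that criterion, in that order. The share of all probes in the other alternatives is not given here, so their counts only describe how the calls depend on processing. Leaving out 1 mouse at a time, from OPT-tm, T30 and T18 but not from OPT18, gave 9 to 15, 10 to 12 and 8 to 13 probes in the same order. The cause was not tested. With chip as a block 9 probes passed against T30, and chip 4, which held no OPT-tm array, then added nothing to the contrast. Apart from the 2-fold criterion, H2-D1, H2-K1 ILMN_2795520, Psmb9, Psmb10 ILMN_2914843 and both Tapbp probes passed in every alternative of all 3 comparisons. No direction was reversed. With neqc background correction the difference between genotypes was -2.90 at H2-K1 ILMN_2795520 and -2.97 at Tapbp ILMN_3155492, and H2-K1 ILMN_2634603 gave -2.71 against T30 and -1.99 against OPT18. The other 3 comparisons had 0 probes passed in all alternatives run. Equal array medians moved the median of all probes to 0.13 for OPT18 against OPT15, where that of the 15 probes was 0.08. No paired analysis was possible because replicate numbers only followed the order of deposit, and arrays were matched by chip instead, in the block above and within chips. B2m was limited by signals near the maximum of the array, and H2-K1 ILMN_2634603, Tapbp ILMN_3155492 and Nlrc5 by signals near background in OPT-tm. Tap1 and Psmb8 signals were also low there, though detected on all 3 OPT-tm arrays.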
